A study of Mus musculus with 15 samples.

Results

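The 50-kb stretch of the mouse Igh locus that separates the Sμ and Sγ1 switch regions, on the side of Sγ3, was examined for prey junctions of the 5′Sμ bait. Its members were all junctions on chromosome 12 placed at chr12:114590000-114639999 (mm9) in the 10 junction lists with positions used here. They numbered 394 of the 36735 junctions in the Igh window (chr12:114450000-114699999) and of the 42200 rows in these lists, so that the stretch took 1.07% of Igh junctions.

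The lists came from CSR-HTGTS, which amplifies genomic DNA from a primer in 5′Sμ (the bait) and sequences whatever the broken bait end was joined to (the prey). Splenic B cells of C57BL/6 mice were cultured for 96 h with LPS, IL-4 and dextran-coupled antibody to IgD, and the labels give the target locus of every library as a non-coding IgH Sm-Sa deletion. By label 3 libraries are WT, 2 lack SHLD1 (Shld1-/-), 3 lack XLF (Xlf-/-) and 2 lack both (Shld1-/- Xlf-/-) in mice with a CRISPR/Cas9 deletion of the Shld1 coding sequence, a knockout of Xlf, or both, and the WT control shares strain and culture. Libraries are named here by their label and a letter.

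Labels and figures of the study do not give the same genotype to every library. Of the 10 libraries 4 carry the same genotype in both and 6 do not. The libraries printed as WT are those labelled WT A, Shld1-/- B and Xlf-/- C. Those printed as Shld1-/- are labelled WT B, Shld1-/- C and Shld1-/- Xlf-/- A. Those printed as Xlf-/- are labelled WT C and Xlf-/- A, and those printed as Shld1-/- Xlf-/- are labelled Xlf-/- B and Shld1-/- Xlf-/- C. Inversional joins place prey and bait on unlike strands. In 20 kb around Sγ1 (the Sγ1 window below) they made up 4.27% to 5.10% of junctions in the libraries printed as WT and 9.46% to 38.7% in the other 7. In the libraries labelled WT they made up 4.51%, 20.5% and 9.46%. Tests between genotypes were made by label only, so their p-values compare mixed groups and do not measure the effect of losing SHLD1 or XLF. Values by printed genotype are a description, given per library in the order of printed genotypes above.

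Class switch recombination joins a break in Sμ to a break in a downstream switch region and deletes the DNA between them. Switch regions are long repeats rich in AGCT, a preferred target of the deaminase AID, and in runs of G on the coding strand; each lies upstream of the constant-region exons it serves. SHLD1 belongs to the shieldin complex, which acts downstream of 53BP1 and limits resection of broken ends, while XLF is a factor of classical non-homologous end joining. Ends joined by alternative pathways often share a few bases at the join, called microhomology (MH).

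No junction of the stretch carried a region name in the lists. The only names the lists use are S, on 5390 rows at chr12:114662507-114663673, and Sg1, on 6827 rows at chr12:114572656-114575196, both outside it, so its name as the Sγ3 side rests on position and sequence. To see what lies there, the prey bases were matched to GRCm38, and 391 of 394 junctions had a unique match of 25 bases; 388 of these lay at the same distance from their mm9 position and 3 at a slightly different one. On GRCm38 the stretch corresponds to chr12:113351789-113401788. It holds all annotated exons of Ighg3, which encodes the constant region of IgG3, at chr12:113356224-113361232 on the minus strand, and 4 pseudogenes.

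The repeat in the stretch is shown by its 300 bases with most AGCT, read on the coding (minus) strand of Igh at chr12:113363584-113363883 (GRCm38), 2352 to 2651 bp upstream of the first annotated Ighg3 exon. Capitals mark each of the 16 AGCT, and 15 junctions of the 10 libraries matched inside it.
Ighg3 upstream repeat: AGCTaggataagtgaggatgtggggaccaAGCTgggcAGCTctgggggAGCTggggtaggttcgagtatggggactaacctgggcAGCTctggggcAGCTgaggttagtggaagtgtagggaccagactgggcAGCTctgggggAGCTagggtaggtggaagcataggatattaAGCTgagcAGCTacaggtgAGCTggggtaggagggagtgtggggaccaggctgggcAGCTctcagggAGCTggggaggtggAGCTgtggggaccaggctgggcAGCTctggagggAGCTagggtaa

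The joins themselves are shown by the 3 prey positions (same base and strand) found in more than 1 library, with 1 read for each, from bait to prey. Bait bases are in lower case and prey bases in capitals.
chr12 114600575, library WT A, deletional, direct: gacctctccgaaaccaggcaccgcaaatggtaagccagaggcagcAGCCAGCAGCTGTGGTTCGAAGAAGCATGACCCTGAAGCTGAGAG
chr12 114603121, library Xlf-/- C, inversional, direct: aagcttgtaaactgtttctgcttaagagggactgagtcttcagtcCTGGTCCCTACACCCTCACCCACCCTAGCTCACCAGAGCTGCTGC
chr12 114636553, library Shld1-/- Xlf-/- A, deletional, MH of 4 bp: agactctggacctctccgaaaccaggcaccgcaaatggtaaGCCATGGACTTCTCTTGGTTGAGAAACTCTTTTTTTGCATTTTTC
In the third read the first 4 capitals are the MH, which both bait and prey could have supplied. The first position recurred in Shld1-/- B, where both alignments covered 15 read bases, the most of all 394 junctions. These 15 count as MH here, but they include a base that the bait lacks, so fewer are shared without a gap. The second position recurred in Xlf-/- B with an MH of 3 bp, and the third in Xlf-/- B with 1 bp. The bait ended at another base in the recurring read each time, for example at 114664782 and 114664842 for the second position. A further 17 positions held 2 junctions each within 1 library, and no read name was shared between libraries.

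Junctions of the stretch were gathered in 4 kb of it. Of the 25 bins of 2 kb, the bin from 114602000 held 98 junctions (72 deletional and 26 inversional) and its neighbour from 114600000 held 70 (60 and 10). The next were the bins from 114634000 with 18, from 114592000 with 17, and from 114596000 and 114598000 with 15 each. Every bin held at least 1 junction, and the median of the 23 other bins was 9. The same 2 bins held the most AGCT, 69 and 32 against 3 to 17 in the others, and the most GGG on the coding strand, 201 and 96 against 13 to 43, counting overlaps. These bins are called the core below; they were picked by AGCT count with the junction counts known, and lie 557 to 4556 bp upstream of the first annotated Ighg3 exon.

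Over the 23 bins beyond the core, Pearson's r between junctions and AGCT was 0.0798 and Spearman's rho 0.268, as a description of bins that share their libraries and differ in GC content. The bin from 114634000 held 18 junctions and had the fewest AGCT, 3, whereas the bin from 114592000 held 17 and had 14, and the bin from 114638000 had 17 AGCT and held 9 junctions. Inside the core 96 of 166 matched junctions (57.8%) lay within 10 bp of an AGCT, where 46.4% of all core positions do. On the Sγ1 side of the core these were 15.1% of 73 junctions and 14.0% of positions, and on the Sμ side 8.55% of 152 and 10.4%. Positions share their repeats, so these shares are given without a test.

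**Figure D1:**
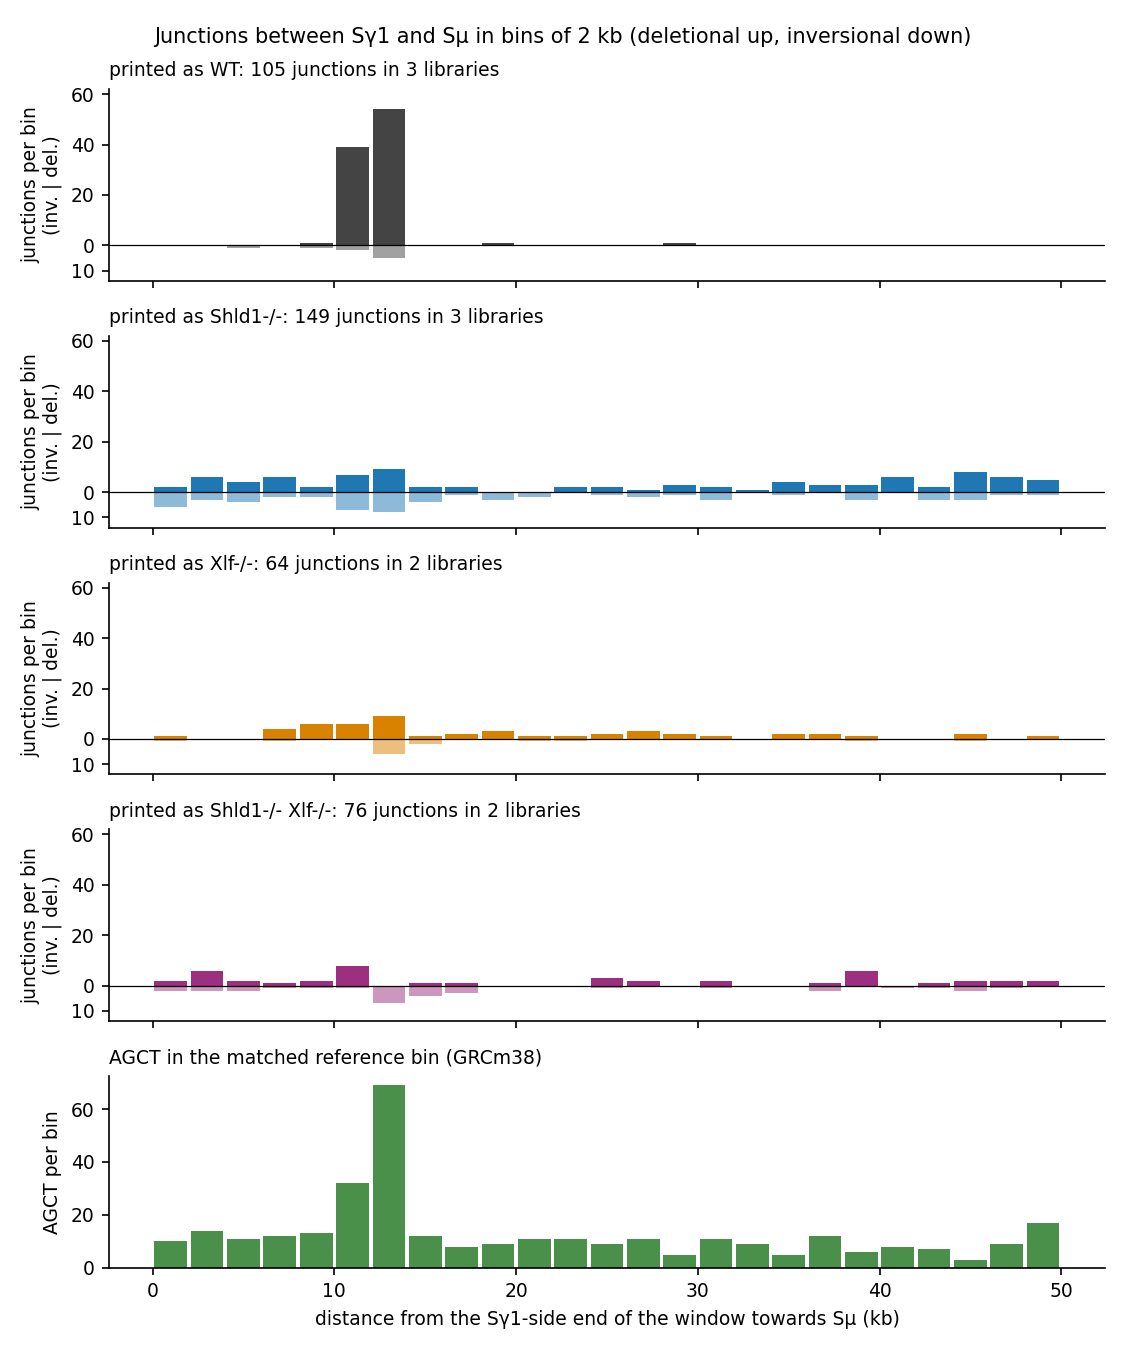
Junctions per 2-kb bin against distance in kb from the end of the stretch nearest Sγ1, summed over the libraries printed under each genotype, with deletional junctions drawn up and inversional junctions down. The lowest panel gives AGCT per bin. Libraries printed as WT have 100 of 105 junctions in the 2 bins with most AGCT, and the other libraries have junctions all along the stretch.

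In the libraries printed as WT nearly all junctions of the stretch fell in the core: 30 of 31 in WT A, 31 of 32 in Shld1-/- B and 39 of 42 in Xlf-/- C. In those printed as Shld1-/- the core held 6 of 34, 9 of 54 and 16 of 61. In those printed as Xlf-/- it held 9 of 24 and 12 of 40, and in those printed as Shld1-/- Xlf-/- 13 of 56 and 3 of 20. The core thus took 92.9% to 96.9% of the stretch in the first 3 libraries and 15.0% to 37.5% in the other 7, with no overlap. Of the 23 bins outside the core, 19 held no junction in the libraries printed as WT, and every one held some in the other libraries.

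Each library was then scaled to its Igh junctions, which numbered 1159 to 8110. The core held 7.30, 3.82 and 5.18 junctions per 1000 Igh junctions in the libraries printed as WT, and 2.83, 3.12 and 6.32 in those printed as Shld1-/-. In those printed as Xlf-/- it held 4.13 and 3.26, and in those printed as Shld1-/- Xlf-/- 5.36 and 2.59. These ranges overlap, and with 3 to 39 core junctions a library the 95% Wilson intervals are wide, for example 0.881 to 7.58 in Shld1-/- Xlf-/- C.

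Outside the core the ranges did not overlap. These 46 kb held 0.243, 0.123 and 0.398 junctions per 1000 Igh junctions in the libraries printed as WT, where they rest on 1, 1 and 3 junctions. They held 13.2, 15.6 and 17.8 in those printed as Shld1-/-, 6.88 and 7.60 in those printed as Xlf-/-, and 17.7 and 14.7 in those printed as Shld1-/- Xlf-/-. The highest upper interval bound in the first 3 libraries, 1.38, lay below the lowest lower bound in the other 7, 4.17. The libraries printed as Xlf-/- lay below all 5 that are printed without SHLD1, though their upper bounds (11.3 and 11) passed the lower bounds of those (from 9.15). The split between libraries printed as WT and the others is not particular to the stretch. Per kb and 1000 Igh junctions, the adjoining 8 kb towards Sγ1 held at most 0.0154 in the former. In the others they held at least 0.0573, which rests on 1 junction in WT C. For the 13.5 kb towards Sμ these values were 0.0183 and 0.408.

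Scaled to junctions in the Sγ1 window (chr12:114562000-114581999, around the region named Sg1), which took 57.2% to 64.2% of Igh junctions in the libraries printed as WT and 25.2% to 52.0% in the others, the core values were 0.598 to 1.28 per 100 in the libraries printed as WT, 0.626 and 0.887 in those printed as Xlf-/-, and 1.0 to 2.12 in the 5 printed without SHLD1. Outside the core they were 0.0193 to 0.0620, 1.46 and 1.48, and 5.11 to 7.03. The core values also depend on the rows counted. Without flagged rows they were 0.989 to 2.10 in the libraries printed as WT, 1.03 to 1.40 in those printed as Xlf-/- and 1.21 to 2.74 in the 5 without SHLD1. Counting a repeated position and strand of a library once gave 0.977 to 1.69, 0.821 to 1.09 and 1.11 to 2.19. It left the core share at 92.5% to 96.8% in the libraries printed as WT. No test was made over printed genotypes.

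**Figure D2:**
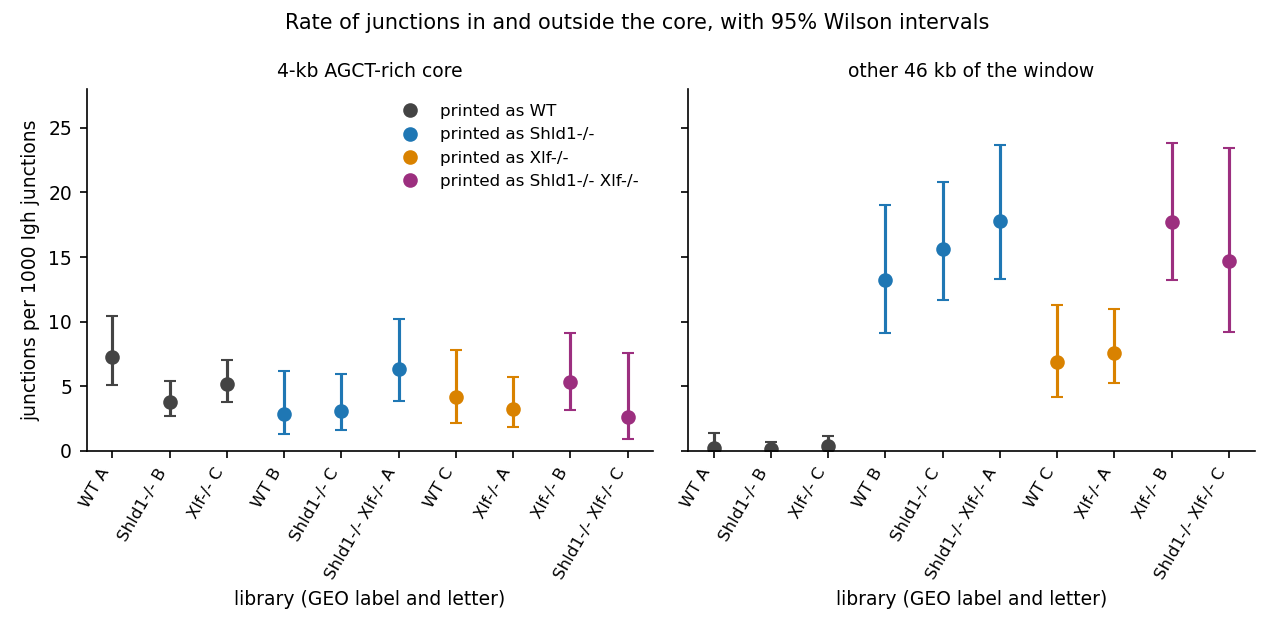
Junctions per 1000 Igh junctions in the 4-kb core (left) and in the other 46 kb (right), 1 point per library with its 95% Wilson interval, coloured by printed genotype. With all rows counted, core rates lie between 2.59 and 7.30 in all libraries. Rates outside the core lie between 0.123 and 0.398 in the libraries printed as WT and between 6.88 and 17.8 in the others.

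The share of Igh junctions that fell in the whole stretch was 0.754%, 0.395% and 0.558% in the libraries printed as WT. It was 1.60%, 1.87% and 2.41% in those printed as Shld1-/-, 1.10% and 1.09% in those printed as Xlf-/-, and 2.31% and 1.73% in those printed as Shld1-/- Xlf-/-. By label the means were 1.15% ± 0.427 for WT (SD, n = 3), 1.13% ± 1.05 for Shld1-/- (n = 2), 1.32% ± 0.899 for Xlf-/- (n = 3) and 2.07% ± 0.483 for Shld1-/- Xlf-/- (n = 2). The libraries labelled WT, at 0.754% to 1.60%, all lay below those labelled Shld1-/- Xlf-/-, at 1.73% and 2.41%, and the other pairs of labels overlapped. SHLD1 loss by label went with a difference of 0.365 percentage points (exact two-sided permutation p = 0.450) and XLF loss with 0.549 (exact permutation p = 0.350), where this design allows no p below 0.0100 and 0.0167. Neither passed the threshold, in groups that mix printed genotypes, and the first came to -0.00438 without Shld1-/- C.

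The stretch can also be set beside its neighbours in the same library, which needs no genotype. The 8 kb towards Sγ1 held a mean of 0.561 junctions per kb and 1000 Igh junctions against 0.276 in the stretch, a difference of -0.284 ± 0.430 (SD, n = 10; exact sign-flip permutation test, adjusted p = 0.115). The 13.5 kb towards Sμ held 2.02, a difference of -1.74 ± 1.84 (n = 10, exact permutation test, adjusted p = 0.0501). The sign changed between libraries: the stretch was denser than the flank towards Sμ in the 3 libraries printed as WT, by 0.0606 to 0.151, and sparser in the other 7, by -0.187 to -4.35. Without the 3 libraries printed as WT the mean was -2.54 (n = 7), and without any 1 of them it was -1.95 or -1.96. These are the libraries of the opposite sign, so leaving them out fixes the sign of the rest and no p is given. The part of the stretch nearer Sγ1, which holds the core, was denser than the part nearer Sμ in 9 of 10 libraries, and the exception was WT B. The core was picked with junction counts known, and held 100 of 105 junctions in the libraries printed as WT. The comparison is therefore not separate from that peak, and its p is no further evidence on the parts. The mean difference over all 10 was 0.185 ± 0.143 (exact permutation test, adjusted p = 0.0219). This call ended without the libraries printed as WT (0.168, exact permutation test, adjusted p = 0.0972, n = 7). Without rows flagged for mapping quality the difference was 0.268 (exact permutation test, adjusted p = 0.0547). That adjustment counted comparisons of flags that gave no value, so it does not settle whether the call holds.

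Joining in the stretch was mostly deletional, with prey and bait on the same strand, in 278 junctions, and inversional in 116. In the libraries printed as WT 2 of 31, 1 of 32 and 6 of 42 junctions were inversional, that is 6.45%, 3.12% and 14.3%. In those printed as Shld1-/- 13 of 34, 23 of 54 and 25 of 61 were, or 38.2%, 42.6% and 41.0%. Those printed as Xlf-/- had 5 of 24 and 9 of 40 (20.8% and 22.5%), and those printed as Shld1-/- Xlf-/- had 18 of 56 and 14 of 20 (32.1% and 70.0%). The library at 70.0% is the smallest, and its Wilson interval runs from 48.1% to 85.5%.

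Summed orientation differed inside the core as well, though single libraries overlapped. Summed over libraries, 7 of 100 core junctions were inversional in the libraries printed as WT, 15 of 31 in those printed as Shld1-/-, 6 of 21 in those printed as Xlf-/- and 8 of 16 in those printed as Shld1-/- Xlf-/-. Outside the core the sums were 2 of 5, 46 of 118, 8 of 43 and 24 of 60. In the 7 libraries not printed as WT, the inversional share was 42.6% in the core, 38.0% on its Sγ1 side and 34.0% on its Sμ side. These sums weight libraries by their junctions and carry no test. By library the core held 2 of 30, 0 of 31 and 5 of 39 inversional junctions in those printed as WT. Those printed as Xlf-/- held 1 of 9 in WT C, within the range of these, and 5 of 12 in Xlf-/- A. Those printed as Shld1-/- held 3 of 6, 5 of 9 and 7 of 16, and the double knockouts 6 of 13 and 2 of 3. Among the 6 libraries with at least 5 junctions in each 25-kb part, the part nearer Sγ1 was more inversional by 16.6 percentage points ± 13.7 (exact permutation test, adjusted p = 0.109), higher in 5 of them.

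Set against the Sγ1 window of the same library, the stretch was more inversional in 9 of 10 libraries. The mean was 29.1% ± 20 in the stretch and 18.7% ± 12.8 in the Sγ1 window, a difference of 10.4 percentage points ± 9.48 (SD, n = 10; exact sign-flip permutation test, unadjusted p = 0.00586, adjusted p = 0.0205 over 14 comparisons). The exception was Shld1-/- B. Rows flagged for mapping quality occur only in the named regions, as a mean of 31.2% of the Sγ1 window and of 30.6% of the Sμ window (chr12:114653500-114673499), and 0 of 394 in the stretch. Whether the lists left such rows out elsewhere was not tested, so counts in the core, also a repeat, may be low beside these windows. Leaving flagged rows out gave a difference of 9.58 (exact permutation test, adjusted p = 0.0547). The adjustment still counted the comparisons of flags, empty there, so this p-value does not settle whether the call holds. Against the Sμ window (16.9% ± 8.09) the difference was 12.2 percentage points ± 15.1, higher in 8 of 10 libraries, with an adjusted p of 0.0508 by the same exact permutation test. The exceptions were Shld1-/- B and Xlf-/- A, and without each of them in turn the difference was 14.1 and 13.8. Both are of the opposite sign, so no p is given for these values.

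Orientation in the flanks is given as counts, without a test. In the 8 kb towards Sγ1, inversional junctions were 8 of 11, 19 of 29 and 14 of 19 in the libraries printed as Shld1-/-, and 19 of 26 and 5 of 10 in those printed as Shld1-/- Xlf-/-. In the 13.5 kb towards Sμ they were 13 of 97, 27 of 184 and 24 of 154, and 24 of 124 and 9 of 40. In these 5 libraries the flank towards Sγ1 was mostly or equally inversional and the flank towards Sμ mostly deletional. The libraries printed as Xlf-/- had 0 of 1 and 2 of 8 towards Sγ1 and 1 of 12 and 6 of 40 towards Sμ, and those printed as WT held at most 2 junctions in either flank.

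**Figure D3:**
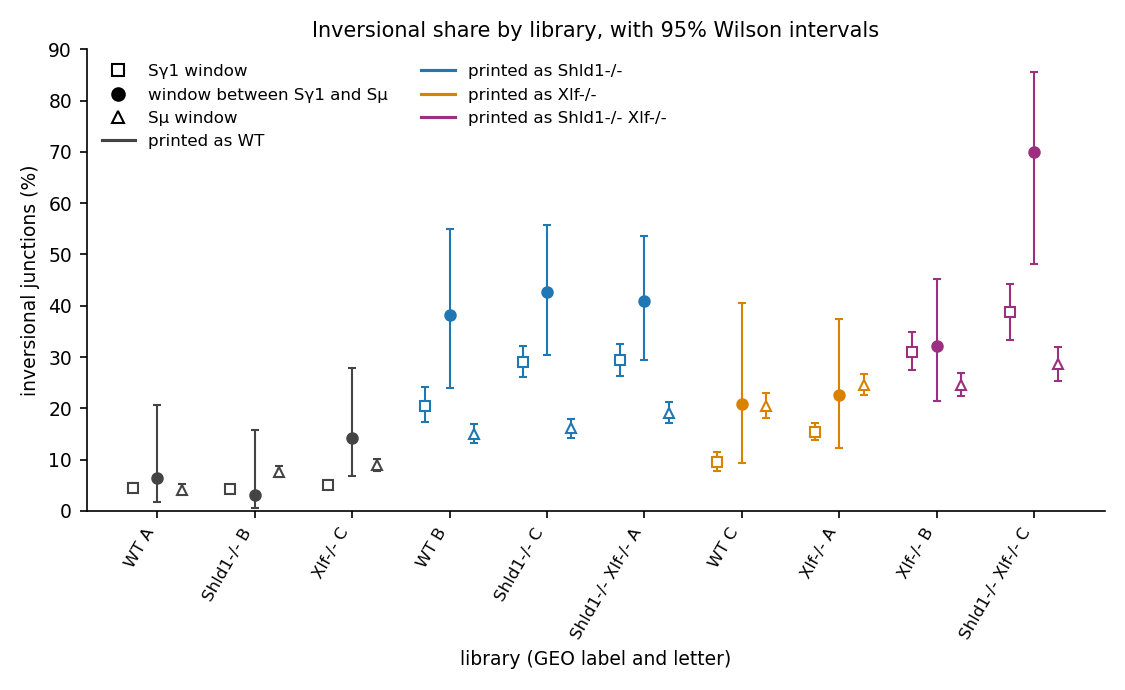
Percentage of inversional junctions in each library in the Sγ1 window (squares), the stretch between the switch regions (filled circles) and the Sμ window (triangles), with 95% Wilson intervals, coloured by printed genotype. The stretch lies above the Sγ1 window in 9 of 10 libraries, and libraries printed as WT lie lowest, at 3.12% to 14.3% in the stretch.

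By label the inversional share was 21.8% ± 15.9 for WT (SD, n = 3), 22.9% ± 27.9 for Shld1-/- (n = 2), 23.0% ± 8.94 for Xlf-/- (n = 3) and 55.5% ± 20.5 for Shld1-/- Xlf-/- (n = 2). As these labels mix printed genotypes, the p-values below do not measure the effect of the loss itself. SHLD1 loss by label went with 16.8 percentage points (exact permutation p = 0.190) and XLF loss with 16.9 (exact permutation p = 0.333). Single libraries decided the size of both. The first was 6.90 without Shld1-/- C, 9.51 without Shld1-/- Xlf-/- C and 26.6 without Shld1-/- B. The second was 7.02 without Shld1-/- B, 9.63 without Shld1-/- Xlf-/- C and 26.8 without Shld1-/- C. Shld1-/- B had the lower share of its label, 3.12%, and so lay against the first difference. No p is given without it. Among the 4 libraries that carry 1 genotype in both, with 1 library each and no test, the difference for SHLD1 loss was 41.8 percentage points.

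At the joins of the stretch, 340 junctions had no inserted base and 54 had an insertion, of 1 bp in 21 cases and of at most 23 bp. In the libraries printed as WT 7 of 25, 9 of 25 and 15 of 38 junctions without insertion were direct joins, with no MH (28%, 36.0% and 39.5%). In those printed as Shld1-/- 4 of 30, 5 of 46 and 4 of 51 were (13.3%, 10.9% and 7.84%). Those printed as Xlf-/- had 3 of 24 and 4 of 35 (12.5% and 11.4%), and those printed as Shld1-/- Xlf-/- had 3 of 49 and 2 of 17 (6.12% and 11.8%). Every library printed as WT lay above every other library, though the intervals of all 3, from 14.3% to 47.6%, 20.2% to 55.5% and 25.6% to 55.3%, overlapped that of Shld1-/- Xlf-/- C, which reaches 34.3%. This order is not particular to the stretch. Direct joins were 30.3% to 31.0% against 5.50% to 18.2% in the Sγ1 window, and 31.1% to 35.1% against 7.65% to 15.1% in the Sμ window.

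Long MH went the other way, with overlap. MH over 3 bp was found in 3 of 25, 6 of 25 and 3 of 38 junctions of the libraries printed as WT (12%, 24.0% and 7.89%), and in 3 of 30, 20 of 46 and 18 of 51 of those printed as Shld1-/- (10%, 43.5% and 35.3%). Those printed as Xlf-/- had 5 of 24 and 10 of 35 (20.8% and 28.6%), and those printed as Shld1-/- Xlf-/- had 20 of 49 and 6 of 17 (40.8% and 35.3%). The median MH was 1 bp in each library printed as WT and 2 or 3 bp in each of the other 7. Within the core alone, 30 of 85 junctions without insertion were direct in the libraries printed as WT and 7 of 61 in the others; MH over 3 bp was found in 12 of 85 and 17 of 61. The commonest shared bases were a single G, in 24 junctions of 7 libraries, and the commonest of 4 bp was CCAG, in 7 junctions of 6 libraries.

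**Figure D4:**
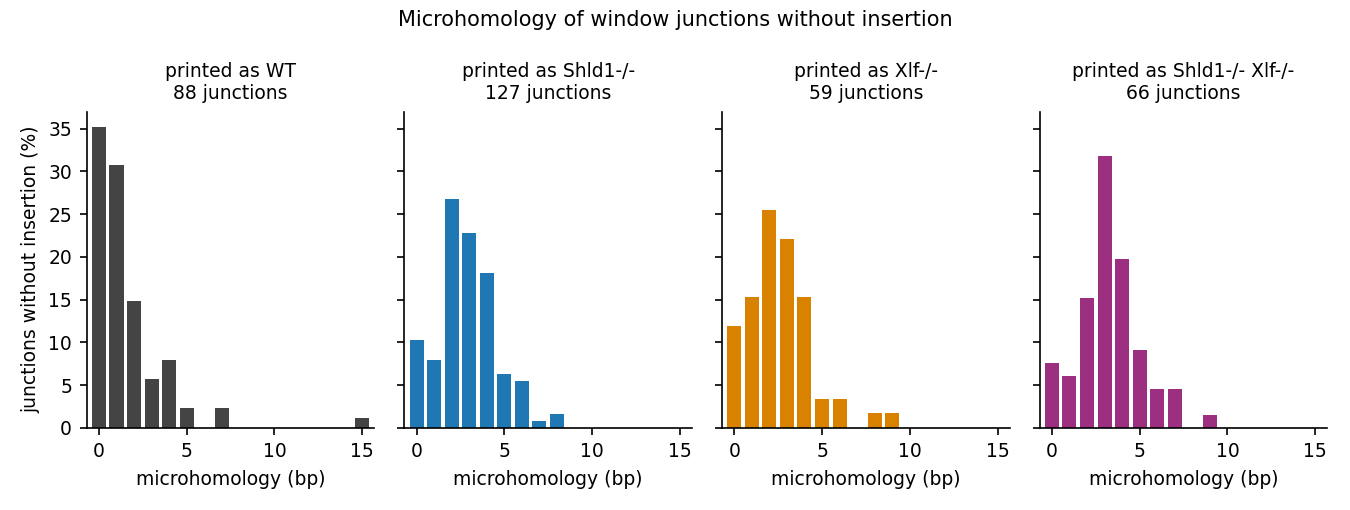
Percentage of junctions without insertion against MH length in bp, summed over the libraries printed under each genotype. In libraries printed as WT 31 of 88 junctions have no MH, and elsewhere the most frequent lengths are 2 or 3 bp.

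Against the switch regions of the same library, no MH measure of the stretch passed the threshold. Direct joins differed from the Sγ1 window by -0.261 percentage points ± 5.14 (SD, n = 10; exact permutation test, adjusted p = 0.873) and MH over 3 bp by 1.26 ± 9.21 (exact permutation test, adjusted p = 0.755). From the Sμ window they differed by -0.736 ± 3.42 (exact permutation test, adjusted p = 0.590) and 4.03 ± 9.0 (exact permutation test, adjusted p = 0.276). Insertions were rarer in the stretch than in the Sμ window in 10 of 10 libraries, 13.4% ± 5.96 against 20.2% ± 3.54 (exact permutation test, adjusted p = 0.00911). This call ended without the rows flagged for mapping quality, where the difference was -2.49 percentage points (exact permutation test, adjusted p = 0.373), and with each position and strand counted once, at -4.90 (exact permutation test, adjusted p = 0.0638). Against the Sγ1 window insertions differed by -1.07 ± 4.73 (exact permutation test, adjusted p = 0.590). In WT C there was no insertion in 24 junctions, which allows a share of up to 12.5%.

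Comparisons of these measures by label, in groups that mix printed genotypes, did not pass the threshold either. Direct joins differed by -1.86 percentage points with SHLD1 loss (exact permutation p = 0.820) and by -6.28 with XLF loss (exact permutation p = 0.517). MH over 3 bp differed by 14.5 with SHLD1 loss (exact permutation p = 0.0900) and by 6.52 with XLF loss (exact permutation p = 0.317). Leaving out Xlf-/- B, the highest of its label at 40.8%, gave 18.3 with SHLD1 loss. Insertions differed by 6.08 with SHLD1 loss (exact permutation p = 0.130) and by -0.757 with XLF loss (exact permutation p = 0.917). Leaving out WT A, the highest of its label at 19.4%, gave 8.33 with SHLD1 loss. Each library left out here lay against the difference, so no p is given for 18.3 and 8.33.

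Within annotated genes of the stretch, 35 junctions lay in Ighg3, 17 of them in its exons and 18 in its introns, and 13 of the 35 were inversional. In the libraries printed as WT 2 junctions lay in Ighg3, both in exons in Xlf-/- C. Ighg3 held 3 to 7 junctions in each of the other libraries. The unprocessed pseudogene Gm17421 held 9 junctions, and the processed pseudogenes Gm5190, Gm9134 and Gm9136 held 5, 4 and 3. Outside annotated genes lay 335 junctions.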

How the data were processed

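The authors mapped the CSR-HTGTS libraries of the 5′Sμ bait to mm9 through their published pipeline, for which the submitters' processing notes name Bowtie2, and the authors deposited 1 row per junction holding the place and strand of prey and bait, where each aligned on the read, and flags of the filters, not normalized. The methods state that duplicates were removed, and rows that still carry the duplicate or mapping-quality flag elsewhere in Igh were counted here. Of 15 libraries, the 10 C57BL/6 lists with positions were used and 5 were not.

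Junctions with prey and bait of equal strand are deletional. MH is the number of read bases that both alignments cover, and bases covered by neither are an insertion. Shares of MH are over junctions that lack an insertion, and libraries with under 10 junctions in a denominator were left out of that comparison. Intervals are 95% Wilson intervals and limits for a count of 0 use 3 junctions, both covering counting error only, since reads carry no molecular identifiers.

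Groups for tests came from the genotype labels. The printed genotype is the one under which the study's figures show a library's counts. SHLD1 loss was tested by exact two-sided permutation within the XLF labels and the reverse, giving 10 comparisons without adjustment. Another 14 comparisons within libraries used exact two-sided sign-flip permutation of the mean difference, adjusted by Benjamini-Hochberg, and the threshold was 0.05. They include the comparisons of mapping-quality flags, whose outcome was fixed because flags occur only in named regions. With all rows these lower the other adjusted p-values, and without flagged rows they raise them. Where nothing else is said, p-values measure the spread between these libraries.

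Prey bases were matched to the GRCm38.p6 sequence of RefSeq by unique runs of 25 bases, because no mm9 genome was used here, and genes were taken from GENCODE M21. Named bins are the 5 with most junctions, ties included, and any empty one, and the printed reads stand for the positions repeated over libraries, 1 each. The members, windows and lists were chosen with earlier results of these data known. Alternatives were other denominators, windows, flags, duplicates and MH thresholds, and each library left out in turn. Scripts ran on Python 3.11.15 with scipy 1.17.1, numpy 2.4.6 and pandas 2.3.3, and the tests were checked on simulated libraries with known shares. The simulation of the SHLD1 test took every label as right. It does not show how tests by label behave where labels and figures differ.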

Additional observations from a re-analysis of the deposited data

How the results depend on the processing

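Without rows flagged for mapping quality, which the stretch lacks, 3 calls passed the threshold no longer: inversional share against the Sγ1 window (9.58, exact permutation test, adjusted p = 0.0547), insertions against the Sμ window (-2.49, exact permutation test, adjusted p = 0.373) and density of the part nearer Sγ1 over the part nearer Sμ (0.268, exact permutation test, adjusted p = 0.0547). The adjustment there still counted the comparisons of flags, which raises the other adjusted p-values. Both values of 0.0547 lie near the threshold and may rest on this, so neither call is read as lost. Direct joins turned sign there, to 0.926 against the Sγ1 window and 0.329 against the Sμ window, with neither past the threshold, and the comparison of the flags themselves gave no value. With each prey position and strand counted once, insertions against the Sμ window came to -4.90. Without the libraries printed as WT, a choice made like the previous one after seeing the data, the density difference from the flank towards Sμ came to -2.54, where the libraries left out are those of the opposite sign, and that between the parts came to 0.168 and did not pass the threshold. In the 4 libraries that carry 1 genotype in both sources, the inversional difference for SHLD1 loss was 41.8 percentage points without a test.

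With each library left out in turn, the share in the stretch ranged from -0.00438 to 0.735 for SHLD1 loss by label. Direct joins ranged from -8.14 to 4.43 for SHLD1 loss, turning positive without WT A, Shld1-/- C or Xlf-/- C, and insertions from 3.49 to 8.33 for SHLD1 loss and from -3.35 to 1.49 for XLF loss. MH over 3 bp ranged from 9.63 to 19.4 for SHLD1 loss. Within libraries, direct joins against the Sγ1 window ranged from -1.23 to 0.342, inversional share against the Sμ window from 8.99 to 14.1, the highest values coming without the libraries of the opposite sign, and density against the flank towards Sμ from -1.96 to -1.45. Of the other alternatives, 169 values and 223 with a library left out counted as unchanged. Values with a p-value kept their direction and side of the threshold. Values without one (pooled junctions, libraries of 1 genotype in both sources, other bin sizes) were counted by nearness to the main value. No pairing of libraries between genotypes was possible because the labels carry no replicate numbers.

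The stretch held 20 to 61 junctions a library, so that shares of them below 4.92% to 15.0% rest on under 3 junctions. Tests by label mix libraries printed under different genotypes.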
